A study of Mus musculus with 6 samples.

Results

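Mitochondrial ribosomal proteins were examined in adipose tissue RNA of 6 samples from KM mice, 3 fed radix Angelica sinensis (RAS) and 3 controls. Members were the genes whose symbols begin with Mrpl or Mrps and a number. The rule leaves out copies marked -ps, of which the authors' table held 0. Members were thus 76 of its 19928 genes, 47 named for the large subunit and 29 for the small. RAS mice received this medicinal plant root at 10.00 g per kg of body weight, and the diet label of the controls reads control. High-fat feeding is named in the series title, which sets out to study the root against obesity and the genes involved. The sources used here name no fat depot, sex or age, and the labels do not say whether a sample is 1 animal or a pool, so the p-values measure only the spread between these samples, which may be technical. Libraries held 14380000 to 15749000 assigned reads.

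The mitochondrial ribosome translates the few proteins encoded by mitochondrial DNA, all of them membrane subunits of the respiratory chain and ATP synthase. Its proteins are encoded in the nucleus, made in the cytosol and imported, where they assemble with the mitochondrial ribosomal RNAs. The small subunit decodes the messenger RNA, and the large subunit joins the amino acids and is held at the inner membrane where the products are inserted. Fat cells rely on this system for their respiratory chain, brown and beige fat cells most of all.

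No member passed the test between RAS and control, and the levels of the groups lay close to each other. In the limma test on log2(FPKM + 1) (FPKM, fragments per kilobase of transcript, scaled to sequencing depth), 0 of 76 members had an adjusted p under 0.05, as had 0.0% of the 12606 genes tested, those with a mean FPKM of at least 1; the smallest value for a member was 0.456. At an unadjusted p under 0.05 there was 1 member, Mrps17, on the lower side, against 6.41% of all genes on that side and 3.86% on the higher side. The differences ran from -0.33 to 0.34 on the log2(FPKM + 1) scale, RAS minus control, which is 0.796 to 1.26 times the control value of FPKM + 1. The samples did differ among themselves, and most members shared a pattern across samples: RAS 3 and control 1 were high, and control 2 was low.

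**Figure D1:**
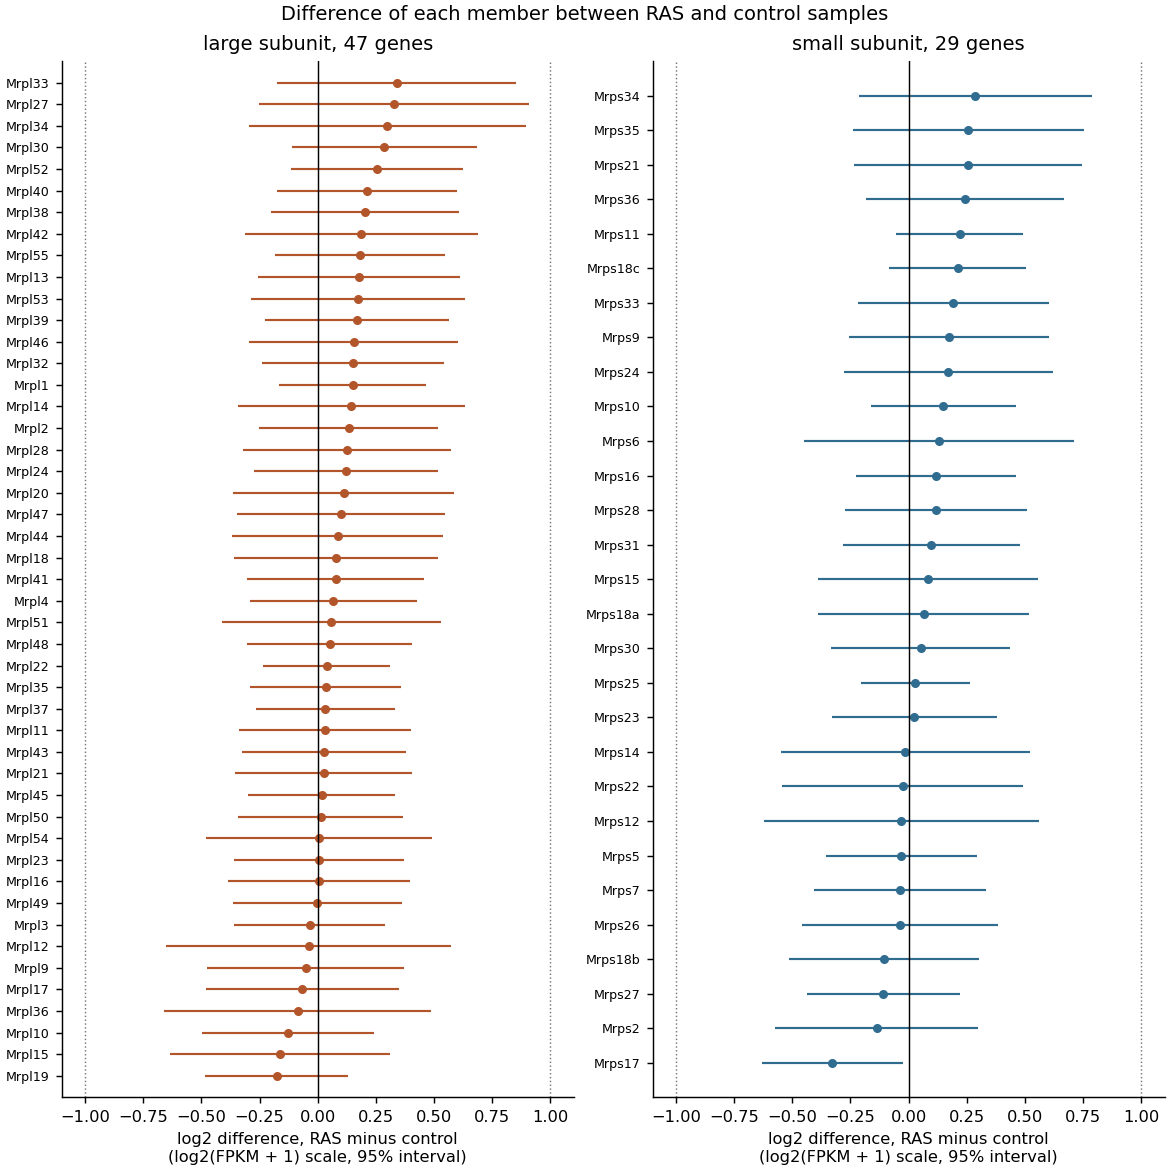
Log2 difference of each member, RAS minus control on the log2(FPKM + 1) scale, with its 95% interval from limma, for the 47 large subunit genes and the 29 small subunit genes. All 76 intervals lie between the dotted lines at -1 and 1, and Mrps17 is the member whose interval lies below 0.

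The 95% intervals of all 76 members lay within 1 log2 unit of 0, that is, within a doubling or halving of FPKM + 1, as did those of 90.5% of all genes tested. The widest bounds were -0.66 and 0.91. Within a factor of 1.5 in either direction lay the intervals of 50 members, 31 of the large and 19 of the small subunit, or 65.8% against 61.5% of all genes. Smaller differences could not be told from the spread between samples, whose SD within groups had a median of 0.230 log2 units over the members and 0.186 over all genes.

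Promoters are shown for 5 members among those with the smallest p in their subunit (that of Mrpl30 holds no motif searched), Mrpl33 also being the member with the highest level, from RefSeq's GRCm38.p6 assembly, each from 250 bases before to 50 after the gene's start, on the gene's strand. Mrps17 (chr5:129715247-129715546, + strand) and Mrps18c (chr5:100798509-100798808, + strand) are the members whose group ranges did not overlap; Mrps11 (chr7:78782881-78783180, + strand) and Mrpl52 (chr14:54426659-54426958, + strand) had the lowest p of small subunit members with a positive difference and, after Mrpl30, of large ones; Mrpl33 lies at chr5:31613701-31614000, + strand. The start is RefSeq's; for Mrpl33 it lies well inside the wider locus that the deposited table gives. Capitals mark matches to the motifs below.
Mrps17: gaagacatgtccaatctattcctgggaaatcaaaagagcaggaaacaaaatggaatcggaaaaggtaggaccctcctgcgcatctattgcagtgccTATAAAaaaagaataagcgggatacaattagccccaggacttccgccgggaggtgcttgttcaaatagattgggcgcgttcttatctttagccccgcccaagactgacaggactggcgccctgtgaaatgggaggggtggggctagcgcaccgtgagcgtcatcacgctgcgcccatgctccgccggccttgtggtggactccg
Mrps18c: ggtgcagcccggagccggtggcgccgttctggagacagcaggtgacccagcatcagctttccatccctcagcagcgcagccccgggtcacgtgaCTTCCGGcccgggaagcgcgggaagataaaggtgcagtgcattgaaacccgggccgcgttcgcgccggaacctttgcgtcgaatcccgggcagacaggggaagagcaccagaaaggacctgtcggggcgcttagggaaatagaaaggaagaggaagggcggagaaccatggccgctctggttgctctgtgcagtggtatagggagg
Mrps11: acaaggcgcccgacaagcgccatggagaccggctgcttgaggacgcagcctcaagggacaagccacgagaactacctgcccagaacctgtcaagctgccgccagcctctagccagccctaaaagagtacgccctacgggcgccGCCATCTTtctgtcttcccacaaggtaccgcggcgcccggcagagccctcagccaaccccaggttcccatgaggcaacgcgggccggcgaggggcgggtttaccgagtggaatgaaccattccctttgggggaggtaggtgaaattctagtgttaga
Mrpl52: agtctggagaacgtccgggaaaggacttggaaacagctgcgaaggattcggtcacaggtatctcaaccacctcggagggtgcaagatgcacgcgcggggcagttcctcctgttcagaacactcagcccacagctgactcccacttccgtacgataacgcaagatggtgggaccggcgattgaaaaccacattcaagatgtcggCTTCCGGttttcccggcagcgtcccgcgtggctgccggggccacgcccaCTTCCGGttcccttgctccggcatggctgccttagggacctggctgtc
Mrpl33: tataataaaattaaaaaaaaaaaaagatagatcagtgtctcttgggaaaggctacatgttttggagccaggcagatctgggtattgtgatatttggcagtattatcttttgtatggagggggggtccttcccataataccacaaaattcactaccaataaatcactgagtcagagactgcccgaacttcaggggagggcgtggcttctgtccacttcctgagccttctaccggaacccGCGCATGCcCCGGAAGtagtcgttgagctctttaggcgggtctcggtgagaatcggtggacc

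The motifs searched, on both strands, were CCGGAAG (bound by ETS factors such as GABPA), AAGATGGC (YY1), GCATGCGC (nuclear respiratory factor 1, NRF1), TCAAGGTCA (oestrogen-related receptors), TGACGTCA (the cAMP response element) and TATAAA (the TATA box). GABPA, YY1 and NRF1 are transcription factors known for binding promoters of nuclear genes of mitochondrial proteins. RefSeq windows were found for 67 of 76 members, 73 windows in all. The ETS letters stood in 24 of 73 windows (32.9%), against 17.1% of the 12343 windows of tested genes and 8.86% of all 32851. The YY1 letters stood in 12 (16.4%, against 4.25% and 2.75%) and the NRF1 letters in 8 (11.0%, against 4.97% and 2.71%). Small subunit windows held the ETS letters in 11 of 27 cases and those of NRF1 in 1, Mrps18b; large subunit windows held them in 13 and 7 of 46. The TATA letters were about as frequent in members as in tested genes (6.85% and 7.36%), those of the cAMP element likewise (2.74% and 2.88%), and those of the oestrogen-related receptor were in 0 of 73 windows and 0.292% of those of tested genes. In the printed windows, Mrpl33 has the NRF1 and ETS letters next to each other around its start, Mrpl52 has the ETS letters on either side of it, Mrps18c has them further upstream, Mrps11 has those of YY1 and Mrps17 those of the TATA box. A match is a description of the letters and not a bound site. GC content was similar in members' windows and in those of tested genes (medians 58.3% and 60.7%), but lower over all windows (median 52.7%).

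Loci are those deposited, with 1 added to each start, on a build that the sources do not name. All 76 overlap the gene with the same Ensembl identifier in GRCm38. Members are spread over 17 chromosomes, with 10 on chromosome 11 and 8 on chromosome 17. In the GENCODE M21 annotation (GRCm38), 17 of 76 members (22.4%) have another protein-coding gene starting within 1000 bases upstream on the opposite strand, against 10.1% of 11663 tested genes. Among these pairs are Mrps18c with the helicase gene Helq, Mrpl32 with the proteasome gene Psma2 and Mrpl49 with Fau. Mrps11 and Mrpl46 are themselves neighbours on opposite strands of chromosome 7, with loci 42 bases apart in the table, though in GENCODE M21 they overlap each other. No label mentions strand-specific libraries, and the spans of 31 members overlap an annotated gene on the other strand. Without strand information, reads from exon stretches common to both genes could not be told apart. Whether exons overlap was not examined.

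Levels differed far more between members than between groups. Mean FPKM over the 6 samples, a measure per length, ran from 1.00 for Mrpl36 to 148 for Mrpl33, with a median of 27.0 in the large and 27.7 in the small subunit; 59 of 76 members lay between 10 and 100. The highest large subunit members were Mrpl33, Mrpl20 (131) and Mrpl52 (128), and the lowest Mrpl36, Mrpl19 (2.65) and Mrpl35 (4.25). In the small subunit Mrps6 (131), Mrps21 (89.7) and Mrps16 (77.2) were highest, and Mrps17 (2.44), Mrps25 (8.07) and Mrps27 (8.66) lowest. For 16 members the table lists another gene on the same locus, so part of a member's reads may be assigned there. Mrpl36 rested on 7 reads in its lowest library, and on its locus Gm20338 was listed at 13.5, 13.6 and 18.1 FPKM in RAS 1, 2 and 3, against 19.3, 13.1 and 17 FPKM in control 1, 2 and 3.

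**Figure D2:**
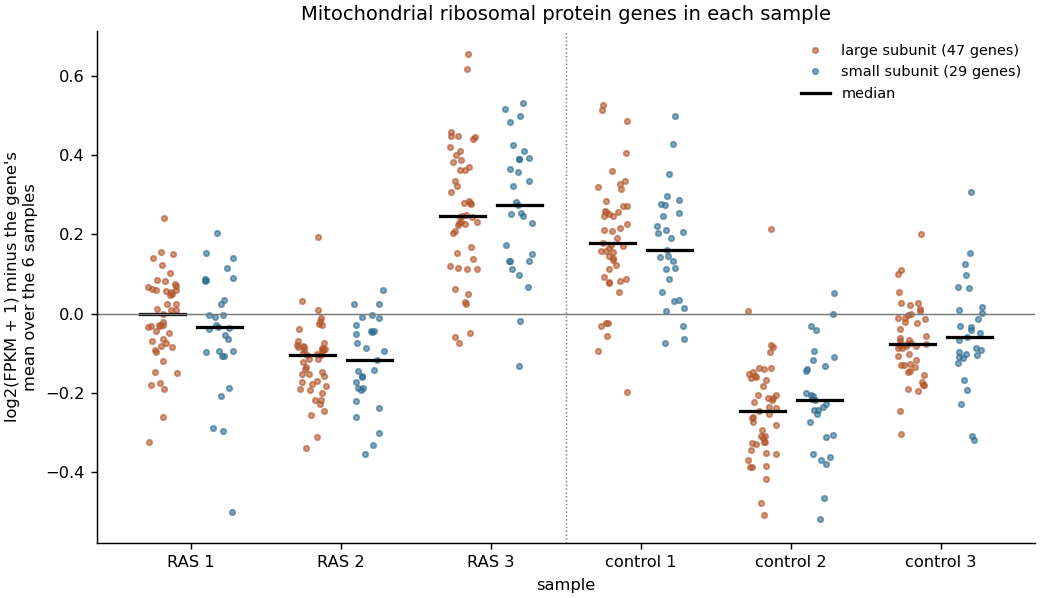
For each sample, the log2(FPKM + 1) of each of 47 large and 29 small subunit genes minus that gene's mean over the 6 samples, with black bars at the medians. RAS 3 and control 1 stand above 0 in both subunits (medians 0.25 and 0.27 in RAS 3, 0.18 and 0.16 in control 1), and control 2 stands lowest (medians -0.24 and -0.22).

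The members moved together from sample to sample. The highest of the 6 samples was RAS 3 for 47 members and control 1 for 24, together 71 of 76 (93.4%, against 53.8% of all genes tested). The 5 others were Mrps17 and Mrps25 (control 3), Mrpl35 (control 2), and Mrps11 and Mrpl55 (RAS 1). Within the RAS group RAS 3 was highest for 65 members (85.5%, against 42.1%), and within the control group control 1 was highest for 67 (88.2%, against 47.7%). Both held for 59 members (77.6%, against 17.8%). Control 2 was the lowest of all samples for 47. Summed over the large subunit, members reached 1628, 1476 and 2048 FPKM in RAS 1, 2 and 3, against 1795, 1319 and 1543 FPKM in control 1, 2 and 3. Small subunit members summed to 960.0, 882 and 1233 FPKM in RAS 1, 2 and 3, against 1064, 801 and 948 FPKM in control 1, 2 and 3. The RAS and control sums overlapped in both, and both subunits kept the same order of samples. As a share of each sample's summed FPKM, all members together made up 0.558% ± 0.0393 with RAS and 0.552% ± 0.0401 in control (SD, n = 3 each).

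In the plain FPKM, 38 of 47 large subunit members (80.9%) and 19 of 29 small subunit members (65.5%) had a positive log2 difference, against 43.0% of all genes; after rescaling each sample's FPKM to the same sum, a setting added after seeing the data, these were 19 and 13, against 25.8% of all genes. The median difference was 0.077 for the large subunit, 0.083 for the small and -0.038 for all genes. That rescaling moved the median of all genes to -0.15 and those of the subunits to -0.038 and -0.034. Relative to the median of all genes the subunits stood at 0.12 and 0.12 as reported and at 0.11 and 0.12 after rescaling. Without RAS 3, 19 of 47 and 12 of 29 members were higher, with medians of -0.019 and -0.061 beside -0.046 for all genes, of which 40.9% were higher. Without control 1 the medians were 0.21 and 0.19, and without control 2 they were -0.0054 and -0.015 beside -0.065 for all genes, with 23 of 47 and 14 of 29 members higher against 38.0% of all genes. The large subunit thus lay above the all-gene median in each of these cases, and the small subunit in all of them but the one without RAS 3. The SD of the sample levels within groups, 0.21 for the large and 0.20 for the small subunit, exceeded each of these medians apart from that of the large subunit without control 1.

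**Figure D3:**
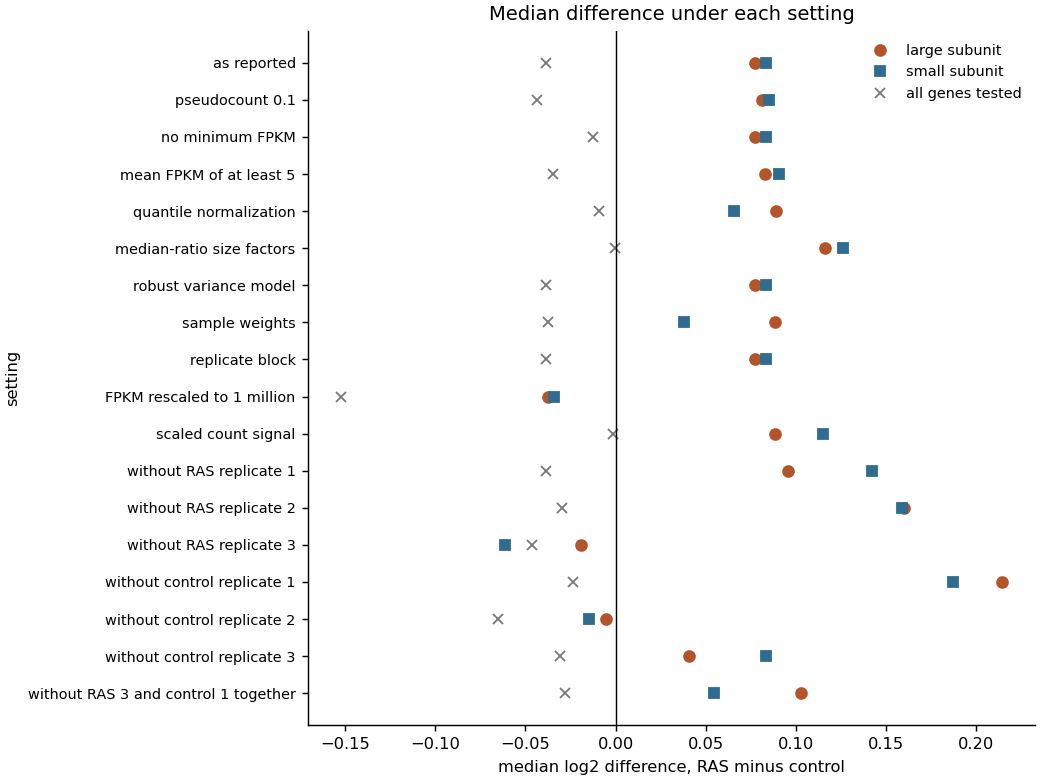
Median log2 difference, RAS minus control, of the large subunit, the small subunit and all genes tested, under the reported setting and 17 alternatives. Both subunits lie at or above the all-gene median in all but 1 case, the small subunit without RAS 3, and they lie below 0 without RAS 3, without control 2 and after rescaling to the same sum.

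In the large subunit, the stalk recruits the translation factors. Mrpl12, the stalk protein that in human cells also binds the mitochondrial RNA polymerase, was at 47.2, 40.1 and 63.3 FPKM in RAS 1, 2 and 3, against 72.4, 39.0 and 46.0 FPKM in control 1, 2 and 3. Control 1 was the highest and the groups overlapped (log2 -0.039 ± 0.26 (SE)). Mrpl10, which anchors Mrpl12, was at 36.0 ± 3.75 FPKM with RAS and 39.7 ± 6.46 FPKM in control (SD, n = 3 each, as below; log2 -0.13), and Mrpl11, at the base of the stalk, at 8.72 ± 1.85 FPKM with RAS and 8.43 ± 0.907 FPKM in control (log2 0.031). None of these passed.

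At the catalytic core and the tunnel through which the new protein leaves, differences were likewise within the spread. Mrpl27, which reaches towards the peptidyl transferase centre, was at 49.4, 62.7 and 74.95 FPKM in RAS 1, 2 and 3, against 68.5, 38.2 and 44.1 FPKM in control 1, 2 and 3. RAS 1 lay below control 1, and the log2 difference was 0.33 ± 0.25 (SE). Mrpl3, a core protein bound to the ribosomal RNA, was at 18.8 ± 2.14 FPKM with RAS and 19.3 ± 2.58 FPKM in control (log2 -0.035). Mrpl45, which in mammalian structures sits at the tunnel exit and ties the ribosome to the inner membrane, was at 9.66 ± 1.51 FPKM with RAS and 9.50 ± 0.911 FPKM in control (log2 0.017). Mrpl44, a protein with an RNase III-like fold, was at 16.7 ± 1.51 FPKM with RAS and 16.1 ± 4.54 FPKM in control (log2 0.086), and Mrpl17, also near the tunnel exit, at 6.15 ± 0.284 FPKM with RAS and 6.63 ± 1.88 FPKM in control (log2 -0.067).

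Among large subunit members with a positive difference, p was smallest for Mrpl30, Mrpl52, Mrpl33, Mrpl27 and Mrpl40, with limma adjusted p of 0.604 to 0.688. Mrpl30, which has a bacterial counterpart, was at 88.3, 79.2 and 116 FPKM in RAS 1, 2 and 3, against 82.6, 72.5 and 74.5 FPKM in control 1, 2 and 3 (chromosome 1, 37890553 to 37898333). RAS 2 fell within the control range (log2 0.29 ± 0.17 (SE)). Mrpl52, found in mitochondrial and not in bacterial ribosomes, was at 134, 125 and 159 FPKM in RAS 1, 2 and 3, against 119, 102 and 129 FPKM in control 1, 2 and 3. RAS 2 lay below control 3 (log2 0.25 ± 0.16 (SE)). Mrpl33, a small protein with a bacterial counterpart, was at 152, 128 and 223 FPKM in RAS 1, 2 and 3, against 139, 116 and 133 FPKM in control 1, 2 and 3 (chromosome 5, 31596935 to 31697610). RAS 3 stood far above the rest, while RAS 2 lay within the control range (log2 0.34 ± 0.22 (SE)). The table's locus for Mrpl33 also holds Rbks, Gm2545 and LOC100503002. Mrpl40 differed by 0.21.

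On the lower side stood Mrpl19, Mrpl10, Mrpl15, Mrpl17 and Mrpl36, with differences of -0.18 to -0.067 and adjusted p of 0.674 to 0.925. Mrpl19, a counterpart of a bacterial protein at the face between the subunits, was at 2.21, 2.57 and 2.49 FPKM in RAS 1, 2 and 3, against 3.33, 2.43 and 2.90 FPKM in control 1, 2 and 3. The groups overlapped (log2 -0.18 ± 0.13 (SE)). Mrpl15 was at 5.72 ± 0.917 FPKM with RAS and 6.65 ± 2.103 FPKM in control, and control 1 at 9.08 FPKM stood apart from the other 5 samples, which lay between 5.19 and 6.78. Mrpl36 was at 0.928 ± 0.359 FPKM with RAS and 1.08 ± 0.596 FPKM in control, too low for its log2 difference of -0.086 to be read. Mrpl20, an early-binding protein among the highest members, was at 135 ± 19.4 FPKM with RAS and 126 ± 27.9 FPKM in control (log2 0.11), and Mrpl35 at 4.29 ± 0.383 FPKM with RAS and 4.20 ± 0.773 FPKM in control (log2 0.034).

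**Figure D4:**
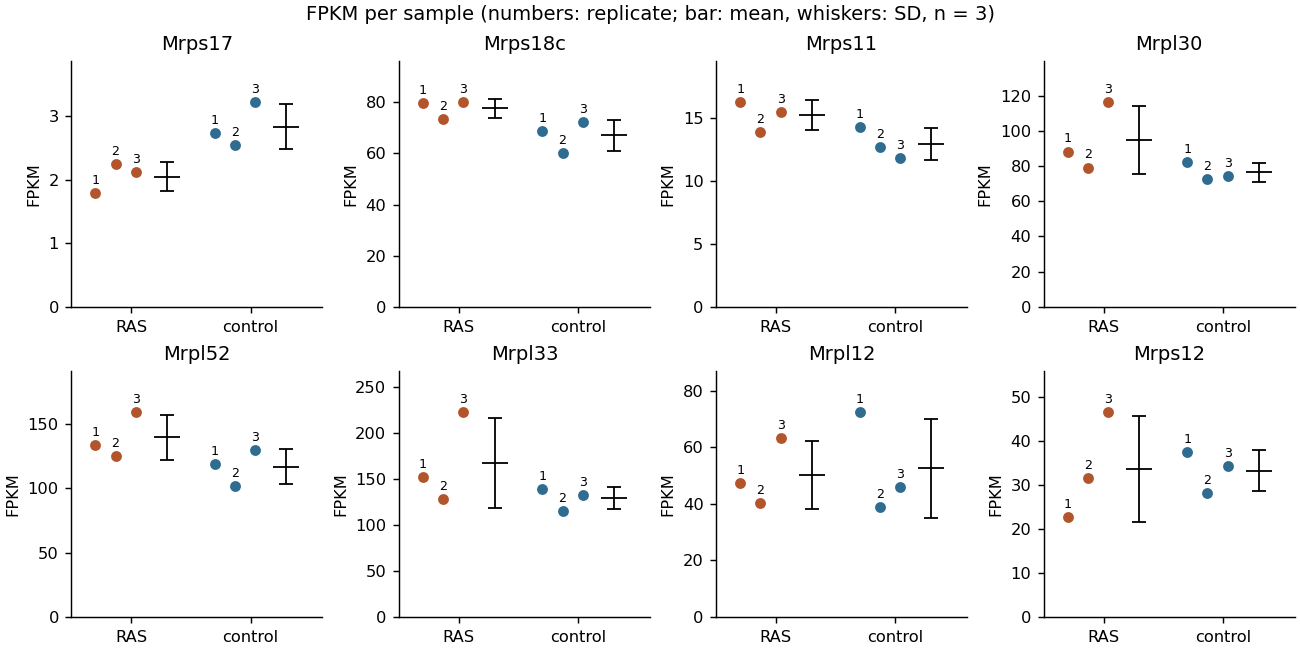
FPKM in each sample for 8 members, with RAS left and control right, the mean as a bar and the SD as whiskers (n = 3 each), each panel's axis starting at 0. Mrps17 and Mrps18c are the members whose groups do not overlap, with RAS at 1.79 to 2.24 against control at 2.54 to 3.22 FPKM and RAS at 73.4 to 80.1 against control at 60.3 to 72.1 FPKM; in Mrpl33, Mrpl30 and Mrps12 RAS 3 stands above the rest.

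In the small subunit, Mrps17 (chromosome 5, 129715528 to 129718691), which binds early to the small ribosomal RNA in bacteria, was the member with the smallest p. It was at 1.79, 2.24 and 2.11 FPKM in RAS 1, 2 and 3, against 2.74, 2.54 and 3.22 FPKM in control 1, 2 and 3. All RAS samples lay below all control samples (log2 -0.33 ± 0.13 (SE); limma adjusted p = 0.456), as held for 1 of 76 members and for 12.5% of all genes. Its lowest library held 28 reads. On the same locus LOC100861671 was at 16.1, 14.4 and 21.9 FPKM in RAS 1, 2 and 3, against 18.8, 17.4 and 19.6 FPKM in control 1, 2 and 3. The groups overlapped in that gene, whose level was several times that of Mrps17, and the table does not show how reads were divided between them.

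The 3 forms of the S18 protein are paralogs (Mrps18a, Mrps18b and Mrps18c), of which Mrps18a is placed in the large subunit in mammalian structures. Mrps18c (chromosome 5, 100798759 to 100804467) was at 79.6, 73.4 and 80.1 FPKM in RAS 1, 2 and 3, against 68.9, 60.3 and 72.1 FPKM in control 1, 2 and 3. All RAS samples lay above all control samples (log2 0.21 ± 0.13 (SE); adjusted p = 0.607), as held for 1 of 76 members and for 5.42% of all genes. Mrps18b was at 26.8 ± 4.08 FPKM with RAS and 29.1 ± 5.72 FPKM in control (log2 -0.11) and Mrps18a at 33.8 ± 7.93 FPKM with RAS and 32.0 ± 5.29 FPKM in control (log2 0.065), both with overlapping groups. The locus of Mrps18b is shared with 3 other genes in the table.

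The proteins named next, at the decoding site and elsewhere in the small subunit, did not differ beyond their spread. Mrps12, the protein at the decoding site, was at 22.8, 31.7 and 46.6 FPKM in RAS 1, 2 and 3, against 37.4, 28.2 and 34.3 FPKM in control 1, 2 and 3. RAS 1 was the lowest and RAS 3 the highest of all samples, so the RAS group enclosed the control group (log2 -0.032 ± 0.25 (SE)). Mrps5, which bears on decoding accuracy in bacteria, was at 12.0 ± 1.27 FPKM with RAS and 12.4 ± 1.92 FPKM in control (log2 -0.032). Mrps7, in the head of the subunit, was at 37.4 ± 2.83 FPKM with RAS and 38.8 ± 7.36 FPKM in control (log2 -0.037), and Mrps2 at 11.7 ± 1.86 FPKM with RAS and 13.1 ± 3.18 FPKM in control (log2 -0.14). Mrps11, on the platform, was at 16.3, 13.9 and 15.5 FPKM in RAS 1, 2 and 3, against 14.3, 12.7 and 11.8 FPKM in control 1, 2 and 3. RAS 2 lay below control 1 (log2 0.22 ± 0.12 (SE); adjusted p = 0.567).

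Proteins that bacteria lack gave the same picture. Mrps34, needed for a stable small subunit, was at 57.8, 54.0 and 70.0 FPKM in RAS 1, 2 and 3, against 65.1, 37.7 and 48.4 FPKM in control 1, 2 and 3. RAS 1 and RAS 2 lay within the control range (log2 0.29 ± 0.21 (SE)). Mrps27, an RNA-binding protein with pentatricopeptide repeats, was at 8.29 ± 0.997 FPKM with RAS and 9.04 ± 1.42 FPKM in control (log2 -0.11) and Mrps25 at 8.15 ± 0.174 FPKM with RAS and 7.99 ± 0.650 FPKM in control (log2 0.028). Mrps30, placed in the large subunit in mammalian structures, was at 28.0 ± 4.34 FPKM with RAS and 27.0 ± 4.39 FPKM in control (log2 0.052). Mrps36, now known as a part of the 2-oxoglutarate dehydrogenase complex and not of the ribosome, was at 35.4 ± 6.70 FPKM with RAS and 29.6 ± 5.18 FPKM in control (log2 0.24). The small subunit members with the highest levels, Mrps6, Mrps21 and Mrps16, do have bacterial counterparts. Mrps6 differed by 0.13, Mrps21 by 0.26 and Mrps16 by 0.12, with limma adjusted p of 0.705 to 0.878.

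Members with a counterpart in bacteria, a list made after the values were seen, had a positive difference in 22 of 30 cases in the large subunit (median 0.073) and 11 of 18 in the small (median 0.10). Those without one did in 16 of 17 cases in the large (median 0.077) and 8 of 11 in the small (median 0.052). These groups were not tested against each other. Of 7 subunits under other names, 5 had a positive difference (median 0.041): Chchd1 was at 50.7, 54.0 and 76.4 FPKM in RAS 1, 2 and 3, against 51.7, 40.5 and 51.2 FPKM in control 1, 2 and 3, with RAS 1 below control 1 (log2 0.31), Aurkaip1 differed by 0.16, Mrp63 by -0.14 and Gadd45gip1 by -0.10.

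Genes that build and serve the ribosome were also below the threshold. Of 21 assembly and ribosomal RNA modification genes, 0 passed, 8 had a positive and 13 a negative difference (median -0.052), and RAS lay below control without overlap in 3, against 12.5% of all genes. The RNA-binding protein Fastkd2 was at 3.96, 4.16 and 3.80 FPKM in RAS 1, 2 and 3, against 6.16, 4.95 and 4.82 FPKM in control 1, 2 and 3. All RAS samples were lower (log2 -0.34 ± 0.12 (SE); limma adjusted p = 0.422), and the pseudouridine synthase Trub2 (-0.40), the methyltransferase Rnmtl1 (-0.39) and Mettl17 (-0.39) followed by p. Of 13 translation factors, 2 had a positive and 11 a negative difference (median -0.060), led by the recycling factor Mrrf (-0.13). Control 1 was the highest sample for 11 of these 13, against 3780 of the 12606 genes tested. The factors' mean of log2(FPKM + 1) minus each gene's mean was 0.016, -0.15 and 0.061 in RAS 1, 2 and 3. In control 1, 2 and 3 it was 0.29, -0.16 and -0.054, so only control 1 lay above all RAS samples. Among all genes tested 43.0% had a positive difference (median -0.038), against 38.1% of the assembly genes and 15.4% of the translation factors. Of 8 transcription and RNA stability genes 6 were negative, and the RNA polymerase Polrmt was at 6.21, 5.99 and 5.75 FPKM in RAS 1, 2 and 3, against 8.08, 6.67 and 6.90 FPKM in control 1, 2 and 3. All RAS samples were lower (log2 -0.23 ± 0.11 (SE); adjusted p = 0.514).

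Of 9 tested nuclear regulators of mitochondrial genes, 0 passed. Myc was at 6.10, 6.39 and 7.77 FPKM in RAS 1, 2 and 3, against 8.96, 10.3 and 10.8 FPKM in control 1, 2 and 3. All RAS samples were lower (log2 -0.51 ± 0.13 (SE); limma adjusted p = 0.285), as in the coactivator Pprc1 (log2 -0.41), while those of the nuclear receptor Ppara were higher (log2 0.73). RAS thus lay below control without overlap in 2 of the 9 genes and above in 1, against 12.5% and 5.42% of all genes. Esrra, an oestrogen-related receptor, differed by 0.26 with overlapping groups, Nrf1 by -0.10, Gabpa by 0.030 and Yy1 by 0.079.

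**Figure D5:**
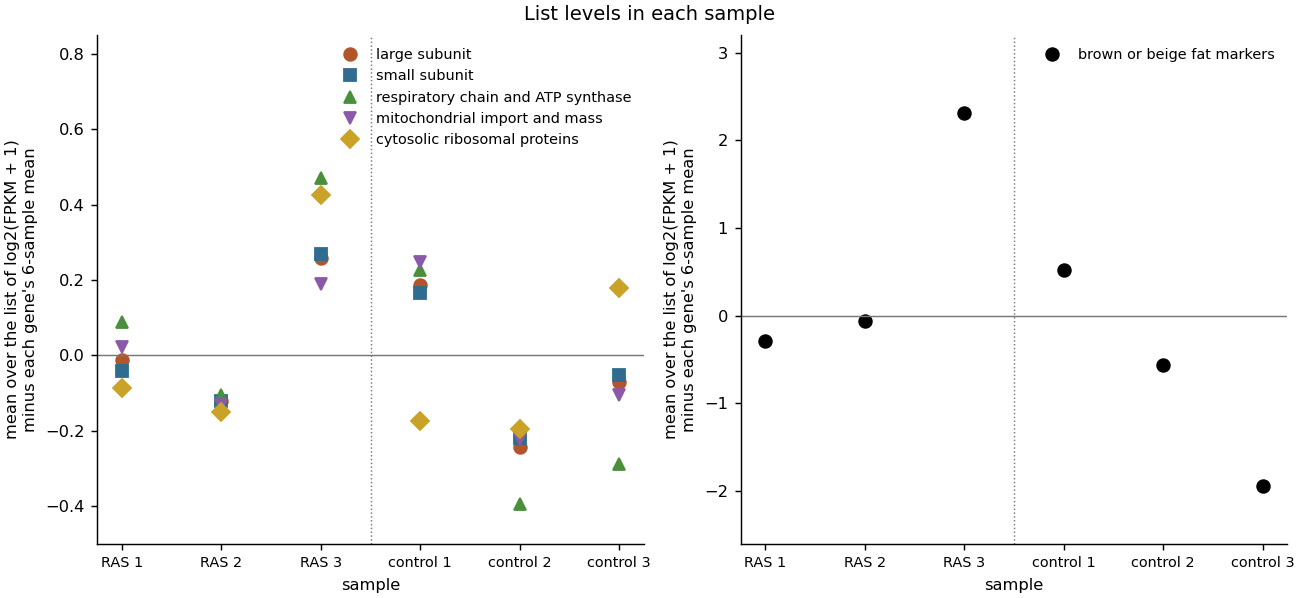
Mean over each list of log2(FPKM + 1) minus each gene's mean over the 6 samples, with the RAS samples left and the control samples right, and brown or beige fat markers on an axis of their own. Both subunits lie at 0.26 and 0.27 in RAS 3 and at 0.19 and 0.17 in control 1, and the brown or beige fat markers at 2.31 and 0.53 there. The brown or beige fat markers lie lowest in control 3 (-1.94), and the subunits lowest in control 2 (-0.24 and -0.22).

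Beside other gene groups, the members' level per sample (the mean of log2(FPKM + 1) minus each gene's mean) was -0.013, -0.12 and 0.26 in RAS 1, 2 and 3, against 0.19, -0.24 and -0.070 in control 1, 2 and 3 for the large subunit. For the small subunit it was -0.043, -0.12 and 0.27 in RAS 1, 2 and 3, against 0.17, -0.22 and -0.052 in control 1, 2 and 3. Genes of mitochondrial import and mass, 12 of 15 with a positive difference, stood at 0.024, -0.13 and 0.19 in RAS 1, 2 and 3, against 0.25, -0.22 and -0.11 in control 1, 2 and 3. These 3 lists share the order of control samples, but so do the respiratory chain genes below and all genes tested. All genes tested stood at 0.043, -0.037 and 0.032 in control 1, 2 and 3. In import genes control 1 lay above RAS 3. Nuclear genes of the respiratory chain and ATP synthase, which do not encode the ribosome's own products, were also scored. They stood at 0.088, -0.10 and 0.47 in RAS 1, 2 and 3, against 0.23, -0.39 and -0.29 in control 1, 2 and 3. Of these, 39 of 39 were positive (median 0.30) and 0 of 39 passed the threshold. The smallest p there belonged to Uqcrb (log2 difference 0.52), Cox7c (log2 0.46), Ndufa4 (log2 0.48) and Ndufb9 (log2 0.43), all with overlapping groups. Cytosolic ribosomal proteins, 73 of 82 positive, stood at -0.086, -0.15 and 0.43 in RAS 1, 2 and 3, against -0.17, -0.20 and 0.18 in control 1, 2 and 3, so control 1 lay low there and control 3 high. Counts by sign for these other lists are for FPKM as deposited, and the lists were set side by side without a test of their difference.

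The summed level of brown or beige fat markers was highest in RAS 3 and next highest in control 1, the samples in which the members were high. By sample the sums were 158, 222 and 989 FPKM in RAS 1, 2 and 3, against 335, 127 and 63.4 FPKM in control 1, 2 and 3. The remaining samples did not keep the members' order. The markers were lowest in control 3 and the members in control 2, and RAS 1 lay below RAS 2 in the markers but above it in the members. Singly, Kcnk3 was at 21.5 FPKM in RAS 3 and 21.9 FPKM in control 1, its highest sample, and Cidea and Elovl3 were higher in RAS 1 and RAS 2 than in control 1. All 7 markers had a positive difference, and their sum was 158 to 989 FPKM with RAS and 63.4 to 335 FPKM in control. Ucp1, the uncoupling protein, was at 4.90, 4.48 and 163 FPKM in RAS 1, 2 and 3, against 33.8, 13.9 and 0.034 FPKM in control 1, 2 and 3. All 8 skeletal muscle markers were negative, with sums of 22.5 to 60.9 FPKM with RAS and 69.2 to 204 FPKM in control, highest in control 1. These sums were mostly Acta1 (21.2 to 59.6 FPKM with RAS and 66.8 to 180 FPKM in control); the other 7 markers were highest in control 1, and of these only Ckm was higher in control 2 than in all RAS samples. Mylpf, a muscle myosin light chain, is an example (0.426 to 0.635 FPKM with RAS and 6.74, 0.171 and 0.647 FPKM in control 1, 2 and 3). Red blood cell markers summed to 1140 to 2770 FPKM with RAS and 670.0 to 1260 FPKM in control, highest in RAS 3. Liver markers summed to 9.71 to 14.1 FPKM with RAS and 9.69 to 159 FPKM in control, and smooth muscle markers to at most 295 FPKM with RAS and 439 FPKM in control, both highest in control 3. Macrophage markers (at most 138 FPKM with RAS and 148 FPKM in control) and lymphocyte markers (5.34 to 10.2 FPKM with RAS and 4.91 to 10.3 FPKM in control) overlapped. No marker of these lists was at 0 in every sample. Their part in the members' levels was not tested, and in bulk tissue fewer cells of a type and less RNA per cell cannot be told apart. Fat cell markers were high in all samples of this adipose tissue, with sums of 40400 to 56700 FPKM with RAS and 29500 to 38500 FPKM in control. Fabp4, a fatty acid carrier, made up most of these sums (30200 to 45600 FPKM with RAS and 20800 to 26400 FPKM in control). Of the 8 markers, 5 had a positive and 3 a negative difference. Adipoq, the fat cell hormone adiponectin, was at 2400 to 3460 FPKM with RAS and 2360 to 2420 FPKM in control, while Lep, the hormone leptin, was lower in all RAS samples (293 to 334 FPKM with RAS and 424 to 615 FPKM in control).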

How the data were processed

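Adipose tissue RNA-seq covered 3 RAS and 3 control samples (oligo(dT)-enriched mRNA, TruSeq libraries, Illumina HiSeq 2500, per the labels' protocols). The submitters' processing notes list TopHat2 2.0.9 and Cufflinks 2.1.1; build, annotation and filters are not stated in the sources at hand. Values in FPKM, per gene and sample, entered the work as deposited by the authors. The deposited table also holds a scaled count signal per gene. Divided by the value of 1 read (0.911 to 1.06 per sample), it gave the read totals, with 97.9 to 98.9% of values above 0 within 0.02 of a whole number; it served for depth and as an alternative. Columns named as the treatment protocol names the RAS group were taken as RAS, and the other numbered set as control by elimination. The 4 group columns stayed out. Deposited locus starts were 1 less than the GENCODE M21 start for 17 members and equal for 3, so 1 was added; all 76 loci overlapped their gene there.

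The 12606 genes averaging 1 FPKM or more entered a limma fit (lmFit, then eBayes with its trend option) of log2(FPKM + 1), two-sided, RAS minus control. P-values were adjusted over all of them by Benjamini-Hochberg, with a threshold of 0.05; all 76 members entered. The code was first tested on simulated data. Fold changes on this scale understate those of low genes. Members and lists were chosen with earlier results of these data known. Named members were, per subunit, up to 5 with the smallest p in each direction, the 3 highest and 3 lowest by mean FPKM, and 14 set in the design; of each other list, up to 4 genes by p. Mrpl32, Mrpl46, Mrpl49, Mrpl55, Nrf1, Gabpa, Yy1, Ucp1 and Ckm fall outside this rule and were chosen after their values were seen. Promoters came from RefSeq's table. Alternatives varied the pseudocount (0.1), the FPKM minimum (none, or 5), the scaling (quantile, median-ratio, the count signal and, added after seeing the data, FPKM rescaled to the same sum), the variance model, sample weights and a replicate block, and left out each library. R 4.3.3, limma 3.58.1, Python 3.11.15, pandas 2.3.3, numpy 2.4.6 and matplotlib 3.10.9 were used.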

Additional observations from a re-analysis of the deposited data

How the results depend on the processing

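The absence of calls among members held in all 17 alternative fits: 0 members passed in each (72 of 76 were tested at a mean FPKM of at least 5), and no named member's call changed. Over all genes the number past the threshold was 0 as reported, 0 to 2 with 1 library left out and 3 without RAS 3 and control 1 together, none of them a member. Subunit medians ranged from -0.019 to 0.21 (large) and from -0.061 to 0.19 (small) with 1 library left out; the rescaling to the same sum gave -0.038 and -0.034. Every one of these shifts was under 1 SD of the sample levels, as were those of the remaining alternatives, including subunits assigned by structure (0.067 and 0.091), subunits under other names added (0.063 and 0.083) and, chosen after seeing the data, members on a shared locus left out (0.083 and 0.11).

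Of 34 named members, 20 changed sign in at least 1 alternative. Under quantile normalization the log2 difference was 0.023 for Mrps5. With median-ratio size factors the log2 difference was 0.011 for Mrps12, 0.0063 for Mrps7, 0.0040 for Mrpl12, 0.0087 for Mrps5 and 0.0067 for Mrpl3. With sample weights the log2 difference was -0.020 for Mrps6, 0.0021 for Mrpl17, -0.027 for Mrpl11, -0.025 for Mrpl45 and 0.035 for Mrpl3. With FPKM rescaled to the same sum the log2 difference was -0.065 for Mrps30, -0.082 for Mrps25, -0.070 for Mrpl35, -0.082 for Mrpl11, -0.0066 for Mrpl20, -0.10 for Mrpl45, -0.052 for Mrps18a and -0.026 for Mrpl44. With the scaled count signal the log2 difference was 0.00083 for Mrpl15, 0.029 for Mrpl17, 0.0064 for Mrps5 and 0.014 for Mrpl3. Without RAS 3 and control 1 together the log2 difference was -0.067 for Mrps6, 0.090 for Mrpl17, 0.044 for Mrps7, 0.037 for Mrpl12, -0.072 for Mrpl35, -0.047 for Mrpl11, -0.033 for Mrpl45, 0.0092 for Mrps5 and 0.078 for Mrpl3.

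With 1 library left out, differences ranged from -0.12 to 0.15 for Mrpl11, -0.22 to 0.21 for Mrpl12, -0.27 to 0.054 for Mrpl15, -0.23 to 0.12 for Mrpl17, -0.053 to 0.27 for Mrpl20, -0.12 to 0.062 for Mrpl3, -0.057 to 0.15 for Mrpl35, -0.25 to 0.14 for Mrpl36, -0.086 to 0.29 for Mrpl44, -0.094 to 0.10 for Mrpl45, -0.29 to 0.21 for Mrps12, -0.11 to 0.19 for Mrps18a, -0.22 to 0.044 for Mrps18b, -0.24 to 0.041 for Mrps2, -0.019 to 0.083 for Mrps25, -0.19 to 0.0025 for Mrps27, -0.061 to 0.17 for Mrps30, -0.11 to 0.084 for Mrps5, -0.10 to 0.33 for Mrps6 and -0.16 to 0.10 for Mrps7.

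The replicate block left 0 calls (1663 genes against 1294 at an unadjusted p under 0.05; smallest adjusted p for a member 0.378) and changed no direction. The main fit did not take the numbers as pairs. Deviations of same-numbered samples correlated at 0.178, 0.096 and 0.219, and each sample correlated best with its own number. These low values do not settle whether the samples were paired. Planned count-model tests on recovered reads were not run, since the deposited signal did not give whole reads precisely enough. Depth limits Mrpl36 and Mrps17 (7 and 28 reads in their lowest libraries).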
